A study of Homo sapiens with 36 samples.

Results

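Box C/D small nucleolar RNAs (snoRNAs) were followed in WiT49 cells, an established line grown from an anaplastic Wilms tumor, a kidney cancer of childhood. The members were the annotated snoRNA genes with a symbol starting SNORD whose counts summed to at least 60 over the 6 libraries of the 6 h RNA table or of the 6 h footprint table. This gave 74 of 278 SNORD genes, out of 58219 genes in the RNA tables. The rule used summed levels over both treatments at 6 h, not a difference between them, and the levels it used are given as a description only. Of the 74 members, 40 passed through RNA alone, 9 through footprints alone and 25 through both. SNORD25 (60 footprint counts), SNORD105B (61 footprint counts) and SNORD72 (63 RNA counts) lay just inside the minimum, and SNORD8, SNORD91A and SNORD70 (57 RNA counts each) just outside.

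All 12 groups were of this 1 cell line and held 3 libraries each, 18 of total RNA and 18 of ribosome footprints, the short RNA pieces a ribosome shields from nuclease. Whether the snoRNA counts in the footprint libraries came from ribosomes was not tested. The treatment was 2 nM actinomycin D (actD), with DMSO as the vehicle, and lasted 6 h, 72 h or 2 weeks. The 2-week schedule was 2 cycles of 7 days in which 3 days of actD or DMSO were followed by 4 days of plain medium. For the 2-week RNA the labels contradict each other: the titles give one treatment and the column names the other. Those libraries are called here by their column names, named actD and named DMSO, and every 2-week RNA difference has the opposite sign if the titles are right. The labels do not name separate cultures, so p-values measure only the spread between these libraries, which may be technical.

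Box C/D snoRNAs are short nucleolar RNAs that pair with ribosomal RNA. Most guide the methylation of a chosen ribose, carried out by fibrillarin (FBL) in a particle that also holds NOP56, NOP58 and SNU13. A few, above all U3 (the SNORD3 genes) and also U14 (SNORD14) and U22 (SNORD22), act in cutting and folding the ribosomal RNA precursor. Most human members are cut out of introns of host genes, many of which encode ribosomal proteins or translation factors, whereas U3 has its own promoters. Actinomycin D at low dose blocks RNA polymerase I, the enzyme that makes this precursor.

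The sequences below are those of members on which the results turn, from the GENCODE release 29 transcripts on GRCh38, written 5′ to 3′. Capitals mark box C, searched as TGATGN in the first 25 bases, and box D, searched as CTGA in the last 25 bases. Both were searched on the transcript strand.
SNORD63 lies at chr5:138561043-138561110 on the minus strand, in HSPA9.
SNORD63: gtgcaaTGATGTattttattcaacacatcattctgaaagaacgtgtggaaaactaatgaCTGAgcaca
SNORD37 lies at chr19:3982507-3982572 on the minus strand, in EEF2.
SNORD37: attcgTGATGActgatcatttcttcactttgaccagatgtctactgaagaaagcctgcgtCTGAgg
SNORD27 lies at chr11:62855012-62855083 on the minus strand, in SNHG1.
SNORD27: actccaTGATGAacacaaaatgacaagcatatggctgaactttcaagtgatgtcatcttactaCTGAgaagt
SNORD62A lies at chr9:131485665-131485750 on the plus strand, in an intron of PRRC2B, and has an identical copy, SNORD62B, in the same gene.
SNORD62A: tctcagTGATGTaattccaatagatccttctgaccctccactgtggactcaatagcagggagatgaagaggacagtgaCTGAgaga
SNORD17, the longest shown, lies at chr20:17962710-17962946 on the minus strand, in an intron of SNX5.
SNORD17: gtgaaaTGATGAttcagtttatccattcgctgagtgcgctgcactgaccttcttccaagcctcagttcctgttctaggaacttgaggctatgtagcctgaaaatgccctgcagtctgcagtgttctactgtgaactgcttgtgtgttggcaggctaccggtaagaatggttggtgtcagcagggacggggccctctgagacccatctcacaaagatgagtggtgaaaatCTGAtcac
U3 is shown by a SNORD3D model at chr17:19112420-19112636 on the minus strand, with no TGATGN in its first 25 bases.
SNORD3D: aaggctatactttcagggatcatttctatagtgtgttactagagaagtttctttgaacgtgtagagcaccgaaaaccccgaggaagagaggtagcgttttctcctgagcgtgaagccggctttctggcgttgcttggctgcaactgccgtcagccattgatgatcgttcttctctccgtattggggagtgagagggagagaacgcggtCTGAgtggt

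The sequences, which the rule did not use, carried the marks of the family. Box C as TGATGN was found in 60 of 74 members (81.1%) and box D in 67 of 74 (90.5%). Among 91 box H/ACA snoRNAs, the other large family, chosen by the same count minimum, the shares in the same windows were 3 of 91 (3.30%) and 12 of 91 (13.2%). The last base of box C was freed after a first search for TGATGA, which matched 48 of 74 members and 0 of 91 box H/ACA genes. A match is a description of the letters in these windows.

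By position, 33 members lay in an intron of every transcript that spans them, 28 overlapped an exon of a noncoding transcript, 4 a UTR and 4 a coding exon, and 5 had no host gene on their strand. The hosts were 46 genes. Ribosomal protein genes (14) hosted 21 members, other protein-coding genes (22) hosted 32 and noncoding genes (10) hosted 16. Of the SNHG1 snoRNAs in the tables, 5 of 6 were members, and of the RNAs that act in precursor cutting 11 of 14. None of 123 snoRNAs of the imprinted clusters on 14q32 and 15q11 was a member, and none of them summed to more than 3 counts in any table. The cells expressed the Wilms tumor gene WT1 (3.77 to 37.6 CPM, counts scaled to library size, over the RNA libraries), while SIX2, EYA1, PAX2, SALL1 and CITED1 reached at most 0.773 CPM.

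U3 has 6 annotated genes: SNORD3A, SNORD3B-1, SNORD3B-2, SNORD3C and a pair of overlapping SNORD3D models. The 217 bases shown for SNORD3D matched the start of each of the others with 0 to 4 edits. Summed over these 6 genes, U3 held 92.4% to 98.3% of all member counts in the RNA libraries. In the footprint libraries its part was 1.85% to 56.4%. The members that filled the rest of the footprint counts were short guides, led in mean count by SNORD38B, which was listed at exactly 1 count in each of the 18 RNA libraries.

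The split of U3 among its genes moved between tables and libraries. SNORD3A held 80.5% to 89.1% of U3 counts in the 6 h RNA and 33.5% to 44.1% in the 72 h RNA. The SNORD3D model shown above had 2777, 2683 and 98 counts in the actD libraries at 6 h and 91, 3438 and 3441 in the DMSO libraries, so 1 library of each group stood low. Its 2-week counts were 68, 113 and 66 in named actD and 1213, 7248 and 73 in named DMSO. How reads that fit several copies were assigned is not given in the sources used here, and U3 is therefore given below mainly as a sum.

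Level per length was set beside transcript length in the 2 assays. In the DMSO libraries at 6 h, the RNA level (CPM per kb) was highest for SNORD3A, at 938, and the median member stood at 4.83. Among the 68 members other than U3, log2 RNA level and log2 length had a Pearson r of 0.20 and a Spearman rho of 0.20. In footprints the level was highest for SNORD38B, at 11959 CPM per kb, followed by SNORD63 at 2792 and by SNORD30 at 1944. Over the 61 members other than U3 with a footprint level above 0, r was -0.45 and rho -0.40, the longer ones being lower per kb. Length enters both variables, so a negative r arises where CPM does not rise with length. The rule also used these 6 h levels, and 40 members passed through RNA alone and 9 through footprints alone. These points share libraries and depth and are given without a test.

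**Figure D1:**
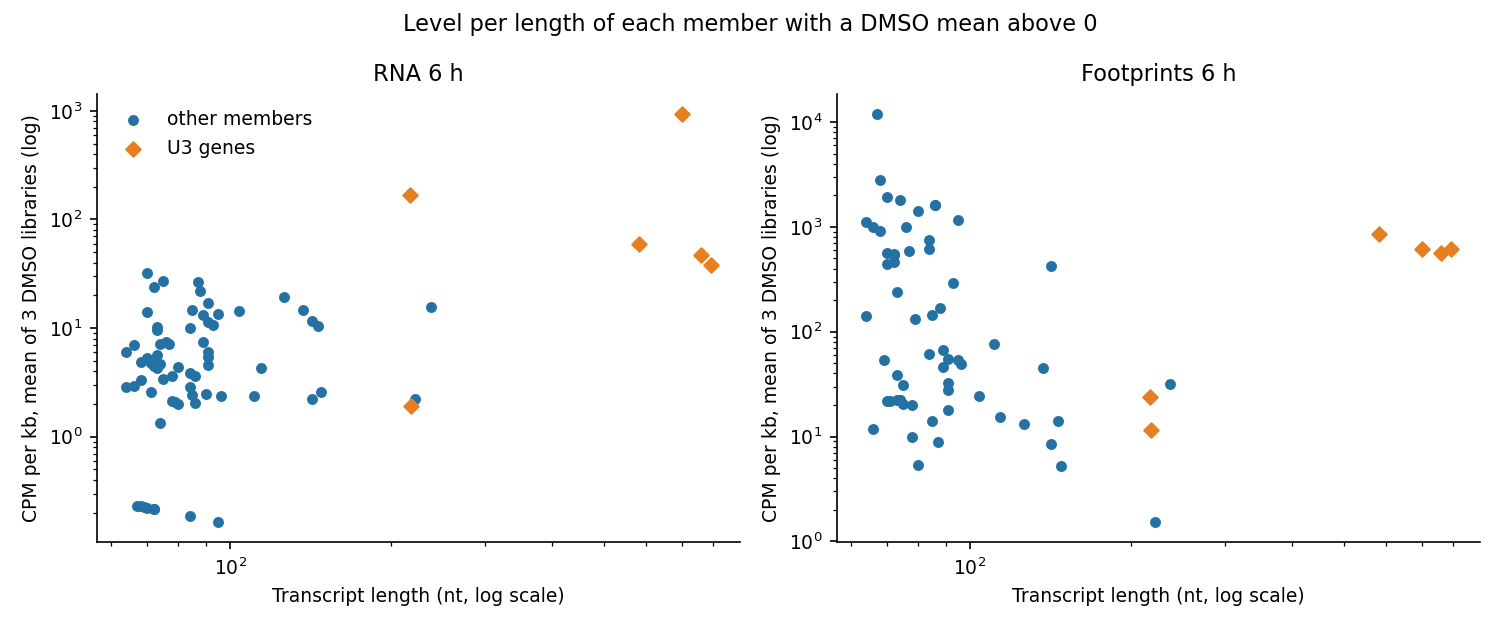
Level of each member per length (CPM per kb, mean of the 3 DMSO libraries at 6 h, log scale) against transcript length (nt, log scale), for RNA on the left and footprints on the right. SNORD3A, one of the U3 genes (diamonds), is the highest point in RNA, while 1 SNORD3D model lies below the median member at 1.94, and in footprints the highest point is the short SNORD38B.

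Some members were listed at exactly 1 count in every RNA library of a time point: 8 at 6 h, 7 at 72 h and 4 at 2 weeks. Each of them overlapped an exon of a host transcript, and none was among the 33 that are intronic in every transcript. Other members moved between at most 3 and at least 20 counts within 1 RNA table, limits chosen after the values were seen. At 6 h these were 8 of the 41 members not wholly intronic and 2 of the 33 wholly intronic ones, and at 72 h they were 12 of 41 and 0 of 33. Reads over a shared exon could be given to the host or to the snoRNA, and the part this plays was not tested.

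The depth was 40221994 to 69240041 counts in the RNA libraries and 152556 to 1281039 in the footprint libraries. Members took 0.0383% to 0.199% of RNA counts. They took 0.376% to 0.711% of footprint counts at 6 h, and 0.0215% to 0.0820% at 2 weeks. One library stood apart, footprints at 72 h, actD replicate 3, where members took 3.03% of all counts against 0.0215% to 0.249% in the other 5 libraries of that table.

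**Figure D2:**
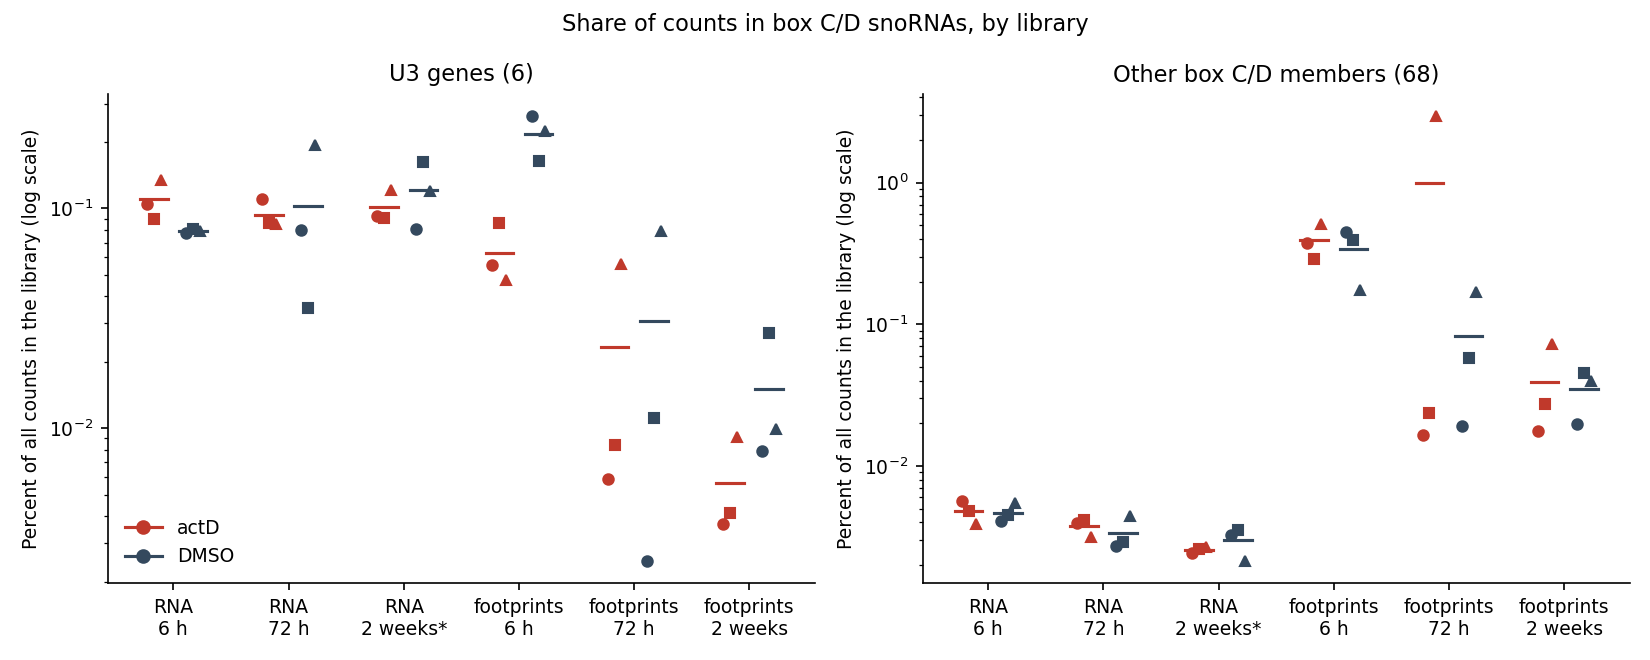
Percent of each library's counts (log scale) in the 6 U3 genes, left, and in the 68 other members, right, for 3 actD and 3 DMSO libraries per table. Points are libraries, bars are means, and the asterisk marks groups called by column name. At 6 h the actD libraries lie above DMSO for U3 in RNA and below DMSO for U3 in footprints, and the highest point on the right is actD replicate 3 of the 72 h footprints.

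The first comparison asks what 6 h of actD did to these RNAs. U3 was higher in every actD library: the 6 genes summed to 61239, 54412 and 86545 counts with actD and to 53560, 51922 and 47229 with DMSO. The groups did not overlap. On the CPM scale, normalised by the trimmed mean of M-values (TMM), U3 was 1110 ± 322 with actD and 792 ± 49.4 with DMSO (SD, n = 3), a log2 fold change of 0.49 (SE 0.20), which did not pass edgeR's quasi-likelihood test (adjusted p = 0.59). U3 made up 0.110% ± 0.0232 of counts with actD and 0.0789% ± 0.0018 with DMSO (SD, n = 3; exact two-sided permutation p = 0.1, the smallest that 3 against 3 allows, 0.3 adjusted over 6 tables). The difference in share was 0.0310 percentage points, and 0.0183 without actD replicate 3, still with no overlap.

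SNORD17, a guide for large-subunit ribosomal RNA, had the smallest p of the members. It had 444, 350 and 485 counts with actD against 253, 222 and 243 with DMSO, with no overlap. Its level was 7.01 ± 1.37 CPM against 3.72 ± 0.219 CPM (SD, n = 3), a log2 fold change of 0.91 (SE 0.19). In edgeR the unadjusted p was 0.0012 and the adjusted p 0.26. DESeq2 gave it an adjusted p of 0.0079. Its host SNX5 had a log2 fold change of -0.19 (SE 0.13; edgeR adjusted p = 0.76).

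Other guides are given by library. SNORD97, in EIF4G2, had 30, 31 and 38 counts with actD against 20, 20 and 21 with DMSO, and CTR9 lies over it on the opposite strand. SNORD99, a guide in SNHG12, had 66, 54 and 40 against 29, 34 and 38. Among those lower with actD, SNORD46 was at 1.12, 0.889 and 1.18 CPM against 1.68, 1.33 and 1.5 CPM, and SNORD83A (in RPL3) had 64, 45 and 52 counts against 71, 73 and 101. SNORD88B had 1, 45 and 40 counts against 67, 60 and 72, so its lowest value was a single count in 1 library. None of these 5 passed the edgeR test (adjusted p = 0.59 to 0.76).

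The U14 copies, which act in cutting of the small-subunit precursor, overlapped between groups in RNA at 6 h. SNORD14D was at 2.20 ± 0.585 CPM with actD and 2.32 ± 0.256 CPM with DMSO (SD, n = 3). SNORD14A had 39, 36 and 23 counts against 28, 19 and 33. SNORD22 (U22), in SNHG1, had 47, 39 and 129 counts against 28, 221 and 219, a spread within each group of several-fold. Its neighbours in SNHG1 also overlapped: SNORD26 had 151, 175 and 83 counts against 144, 119 and 126, and SNORD30 had 62, 65 and 32 against 53, 67 and 71. SNORD27 had a log2 fold change of -0.21 (SE 0.36) in RNA. SNORD25, of the same host, was listed at 1 count in each of these libraries.

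Over all members, 62 of 74 passed the filter on low counts at 6 h and 0 were called by edgeR at an adjusted p under 0.05, against 0.0% of 22669 genes tested. At an unadjusted p under 0.05 there were 5 members (8.21% of all genes). DESeq2 called 1, SNORD17 (0.9% of all genes). The groups did not overlap for 10 of the 62 members (15.8% of all genes), 5 of them higher (7.66% of all genes) and 5 lower (8.17%). The median log2 fold change was -0.06 against 0.02 over all genes tested. Without actD replicate 3 the members' median was 0.09.

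The box H/ACA family was set beside the members in RNA at 6 h, where U3 held 93.5% to 97.2% of member counts. Box H/ACA snoRNAs made up 0.0326% ± 0.0065 of RNA counts with actD and 0.0183% ± 0.0001 with DMSO (SD, n = 3). The log2 ratio of box C/D to box H/ACA counts was 1.82 ± 0.083 with actD and 2.19 ± 0.040 with DMSO (SD, n = 3), lower in each of the 3 actD libraries (exact two-sided permutation p = 0.1, 0.3 adjusted over 6 tables). The share of members other than U3 overlapped between the groups, at 0.0048% ± 0.0009 and 0.0047% ± 0.0007 (SD, n = 3). Without U3 the log2 ratio was -2.76 ± 0.478 with actD and -1.98 ± 0.215 with DMSO (SD, n = 3). Its groups did not overlap (exact two-sided permutation p = 0.1, 0.6 adjusted over 6 tables). In footprints at 6 h the ratio with U3 was 0.19 ± 0.484 against 1.05 ± 0.416 (SD, n = 3), with no overlap. The same permutation test gave p = 0.1 there, 0.3 adjusted. Without U3 the footprint ratios overlapped, at -0.04 ± 0.371 against 0.26 ± 0.154.

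**Figure D3:**
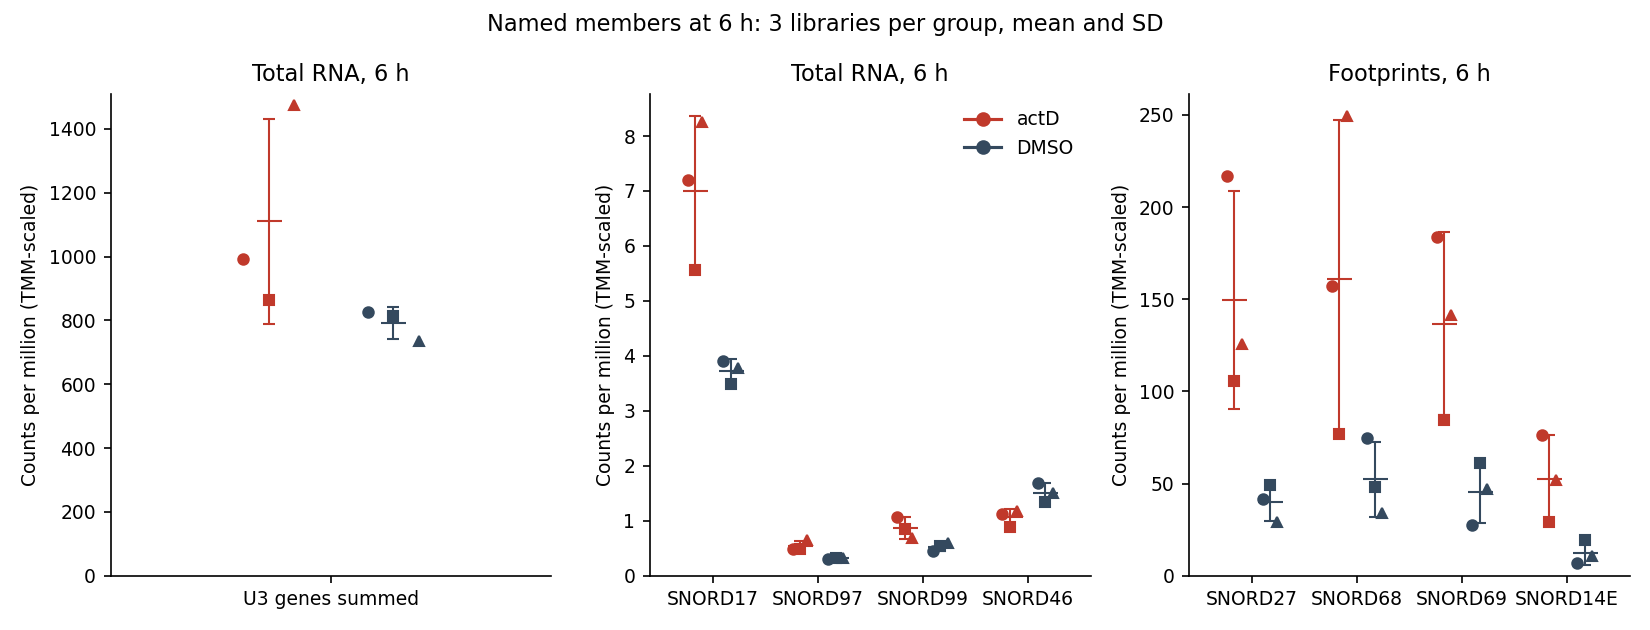
TMM-normalised CPM at 6 h for U3 summed over its 6 genes and for 4 named members in RNA, and for 4 named members in footprints. Points are the 3 libraries of each group and lines are mean and SD. U3 and SNORD17 lie higher in all 3 actD libraries, SNORD46 lies lower, and the 4 footprint members lie higher.

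In footprints at 6 h, the fold changes of U3 and of the other members tested lay on opposite sides after TMM scaling. U3 summed to 710, 377 and 172 counts with actD and to 1262, 1146 and 1055 with DMSO. Its share of counts was 0.0629% ± 0.0204 against 0.218% ± 0.0503 (SD, n = 3), with no overlap (exact two-sided permutation p = 0.1, 0.3 adjusted over 6 tables). On the TMM-normalised CPM scale the U3 sum overlapped, at 951 ± 542 against 1847 ± 803 (SD, n = 3; edgeR adjusted p = 0.89). The share of the other members overlapped, at 0.394% ± 0.113 with actD against 0.339% ± 0.145 with DMSO (SD, n = 3). The exact two-sided permutation p was 0.7, or 0.9 adjusted over 6 tables. All 4 U3 genes tested had a negative log2 fold change, and all 21 other members tested had a positive one. Of all genes tested 56.8% were positive, and the TMM factors of these libraries ran from 0.383 to 2.35. Without actD replicate 1, 14 of 23 others were positive, and without DMSO replicate 3, 3 of the 4 U3 genes were negative. With no filter on low counts 52 of 62 others were positive. With library totals in place of TMM, 14 of those 21 were positive, and the median of all genes tested moved from 0.11 to -0.55.

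SNORD27, a guide for small-subunit ribosomal RNA in SNHG1, had 105, 40 and 56 counts with actD against 41, 38 and 11 with DMSO. Scaled to TMM-normalised CPM this was 150 ± 59.2 against 40.0 ± 10.4 (SD, n = 3), with no overlap, a log2 fold change of 1.89 (SE 0.51). SNORD68, in RPL13, was at 157, 76.8 and 249 CPM against 74.4, 48.0 and 34.1 CPM. SNORD69, in GNL3, had 89, 32 and 63 counts against 27, 47 and 18. The TMM-normalised CPM of SNORD68 and of SNORD69 did not overlap between groups. Per total library counts SNORD27 overlapped: actD replicate 1 had 105 of 1281039 counts and DMSO replicate 1 had 41 of 478098. On that scale SNORD68 overlapped too, and SNORD69 did not. SNORD14E, a copy of U14 in HSPA8, had 37, 11 and 23 counts against 7, 15 and 4, a log2 fold change of 2.07 (SE 0.55). All 4 had an adjusted p of 0.89 in edgeR.

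Of the 74 members, 25 passed the filter in these footprints and 0 were called by edgeR (0.0% of 1212 genes tested), with 4 at an unadjusted p under 0.05 (3.14% of all genes). DESeq2 called 4 members higher, SNORD63, SNORD27, SNORD37 and SNORD14E (0.99% of all genes). On the TMM-normalised CPM scale the groups did not overlap for 8 of 25 (9.41% of all genes), 6 of them higher (3.71% of all genes) and 2 lower (5.69%). The members' median log2 fold change was 1.02 against 0.11 over all genes, and 0.07 against -0.55 with library totals. Without actD replicate 1 the members' median was 0.33. In the same libraries microRNAs held 4.67% to 71.4% of counts, small nuclear RNA genes 6.18% to 32.2% and protein-coding genes 2.12% to 19.8%. The part this make-up plays in the members' values was not tested.

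At 72 h the RNA levels of U3 varied most among the DMSO libraries. U3 summed to 59544, 45321 and 46056 counts with actD and to 31943, 15232 and 130792 with DMSO, so the DMSO libraries lay on both sides of all actD libraries. The DMSO libraries likewise lay on both sides for SNORD17, with 287, 300 and 469 counts against 98, 88 and 860. The same held for SNORD10, a guide for the spliceosomal RNA U6, with 265, 204 and 167 counts against 70, 35 and 509. The member share of counts was 0.0975% ± 0.0148 against 0.106% ± 0.0829 (SD, n = 3). Without DMSO replicate 3 the difference in share changed from -0.0088 to 0.0373 percentage points. Of 41 members tested 0 were called by edgeR (0.00472% of 21195 genes) and 0 had an unadjusted p under 0.05 (13.1% of all genes). DESeq2 called 0 (2.85% of all genes). The groups did not overlap for 2 of 41 (20.9% of all genes). The members' median was 0.24 against 0.02 over all genes, with 31 of 41 above 0.

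In footprints at 72 h the counts rested on 1 library. SNORD38B, a guide for large-subunit ribosomal RNA, had 70, 54 and 12859 counts with actD against 44, 68 and 116 with DMSO. SNORD37 had 3, 2 and 1467 against 1, 1 and 9. SNORD63 had 1, 0 and 1458 against 0, 1 and 8. The sequences of SNORD37 and SNORD63 are printed above.

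That library, actD replicate 3, held 21006 member counts, against 95 to 380 in the other 5. SNORD38B alone made 61.2% of them, and 17 members reached 100 counts there, against 1 in any of the other 5. U3 had 389 counts there, against 11 to 120 in the other 5, and box H/ACA genes had 6802 counts, against up to 4002.

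**Figure D4:**
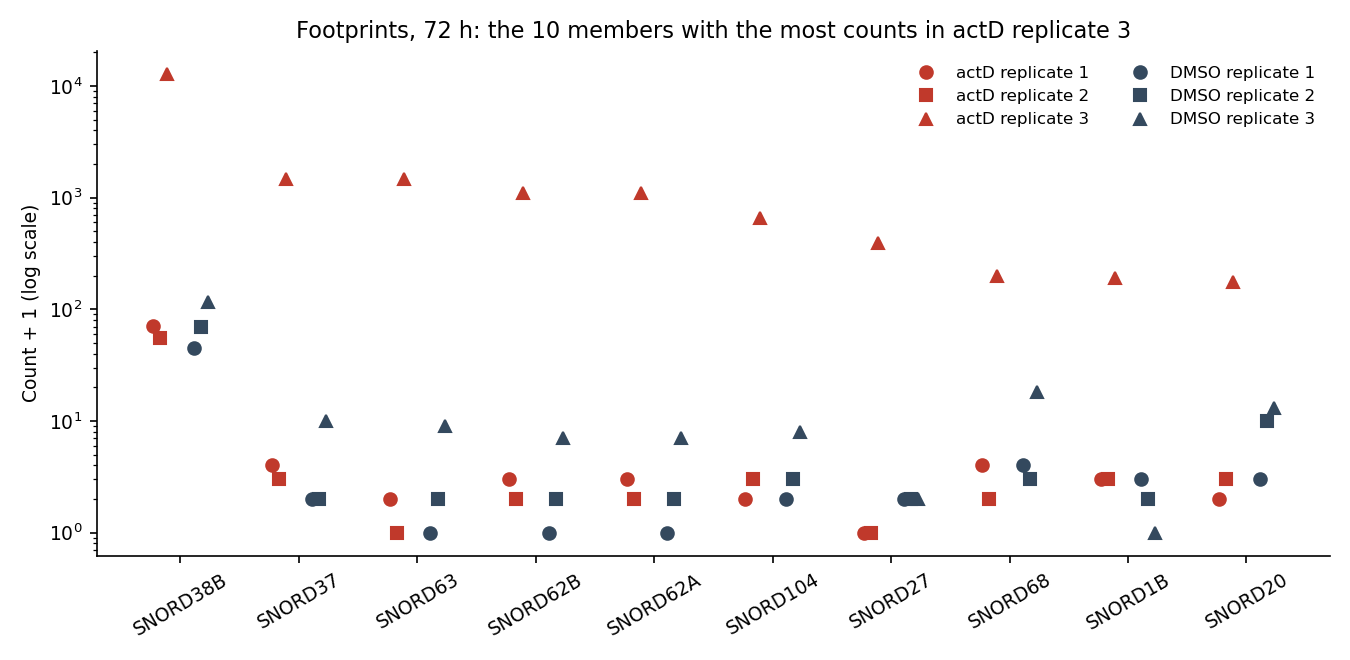
Footprint counts at 72 h (count + 1, log scale) of the 10 members with the most counts in actD replicate 3, in each of the 6 libraries. The red triangle of that library lies above every other point for all 10, at 12859 counts for SNORD38B.

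Only 4 members passed the filter in the 72 h footprints, and 0 were called by edgeR (3.79% of 2426 genes) and 0 by DESeq2 (4.41%). No member had an unadjusted p under 0.05 (27.3% of all genes) or groups that did not overlap (35.7% of all genes). SNORD38B had a log2 fold change of 3.16 (SE 1.91; adjusted p = 0.31). Without actD replicate 3 it was -2.04. With no filter on low counts edgeR called 9 members higher (2.32% of all genes), among them SNORD63, SNORD37 and SNORD27, each with at most 9 counts in any other library.

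Without actD replicate 3, edgeR and DESeq2 each called 0 of the 4 members tested (10.4% and 4.32% of all genes called), with a median log2 fold change of -2.09 in edgeR. With no filter and without that library edgeR called 0 members higher and 6 lower (5.13% of all genes called in either direction). SNORD20, a guide for small-subunit ribosomal RNA, had 1 and 2 counts with actD against 2, 9 and 12 with DMSO there. The U3 gene SNORD3C had 10 and 7 against 3, 6 and 28. SNORD68 had 3 and 1 against 3, 2 and 17, and SNORD69 had 1 and 2 against 2, 1 and 16. SNORD88A had 2 and 0 against 0, 1 and 14, and SNORD14C had 1 and 1 against 1, 3 and 9. All 6 were highest in DMSO replicate 3, the library with the fewest counts, 152556, and a TMM factor of 0.544. These calls rest on few counts, and the direction of the calls without a filter turned with actD replicate 3.

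At 2 weeks the RNA of U3 overlapped between groups, at 49989, 53303 and 60149 counts in named actD and 42872, 81609 and 60847 in named DMSO. SNORD97 had 19, 20 and 177 counts against 16, 14 and 15, its difference resting on 1 library. SNORD15A, in RPS3, had 43, 36 and 28 against 14, 33 and 11. SNORD88B was lower, with 29, 24 and 24 against 41, 46 and 31. Of 41 members tested 0 were called by edgeR (0.0% of 21137 genes), with 3 at an unadjusted p under 0.05 (8.93% of all genes). DESeq2 called 1 (0.932% of all genes), the SNORD3D model whose counts moved between libraries. The groups did not overlap for 4 of 41 (15.7% of all genes), 3 of them higher (7.86%) and 1 lower (7.83%). The members' median log2 fold change was -0.21 against -0.02 over all genes.

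Footprints at 2 weeks held 158, 316 and 769 member counts with actD and 161, 793 and 360 with DMSO. SNORD38B had the highest mean count, at 51.3, 178 and 574 CPM against 61.9, 99.9 and 199 CPM. U3 summed to 27, 41 and 86 counts against 46, 298 and 72, and the groups overlapped. Of 8 members tested 0 were called by edgeR (0.0% of 1598 genes), and 0 by DESeq2 (0.0%). None had an unadjusted p under 0.05 (8.57% of all genes) or groups that did not overlap (14.9%). The median was -0.99 against 0.02 over all genes, and 4 of the 8 were U3 genes. With near-identical copies summed it was -0.20 over 5, and without 1 library at a time it ran from -1.64 to -0.21.

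**Figure D5:**
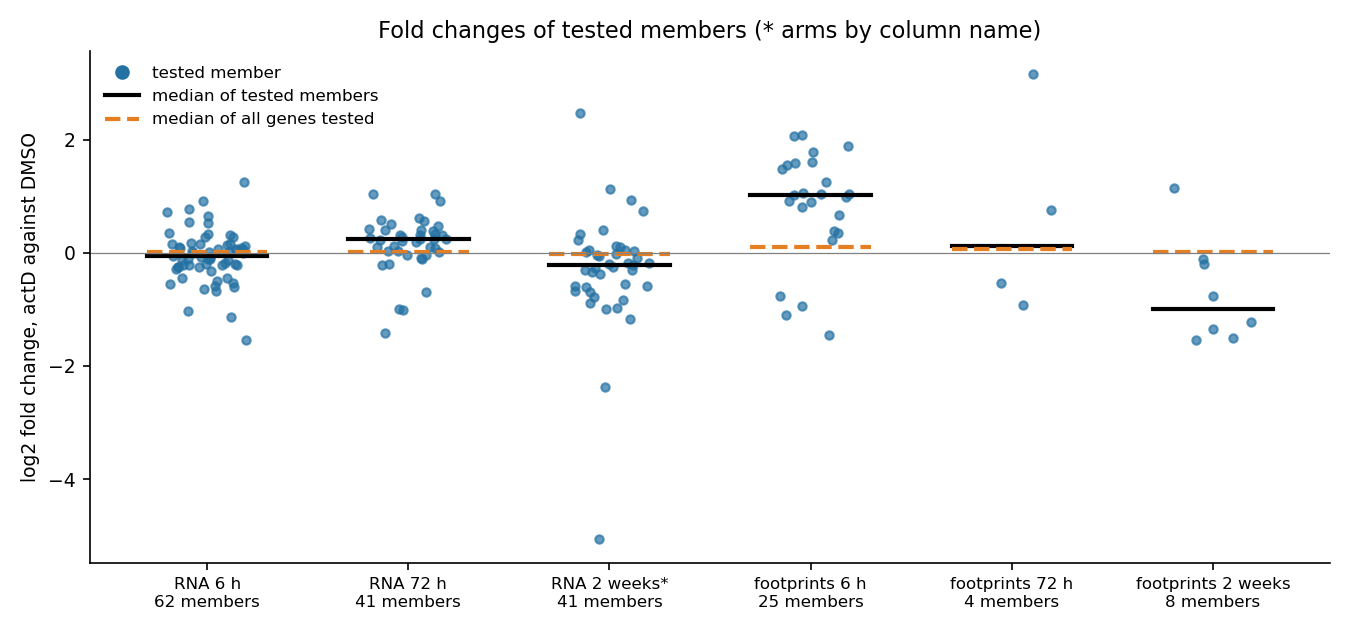
Log2 fold change (actD against DMSO) of each member tested in each table, with the median of tested members (solid) and of all genes tested (dashed). The asterisk marks arms called by column name. In footprints at 6 h the median is 1.02, with the 4 U3 genes below 0, and at 2 weeks it is -0.99 over 8 members.

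The effect of actD was compared between times with a treatment-by-time term. No member was called for RNA at 72 h against 6 h by edgeR (65 members tested, 0.0165% of all genes called), with 1 at an unadjusted p under 0.05 (8.02% of all genes). None was called for footprints at 72 h against 6 h (27 tested, 0.0% of all genes called), with 2 at an unadjusted p under 0.05 (6.54%). None was called for footprints at 2 weeks against 72 h (12 tested, 0.0532% of all genes called), with 1 unadjusted (7.5%). DESeq2 called 0 members in each of the 3 (0.652%, 0.199% and 0.293% of all genes). Without actD replicate 3 of the 72 h footprints, 0 members were called in both footprint terms by edgeR (0.0% and 0.0468% of all genes) and by DESeq2 (0.0302% and 0.0234%). In edgeR 8 of 33 members then had an unadjusted p under 0.05 for 72 h against 6 h (7.49% of all genes) and 1 of 13 for 2 weeks against 72 h (10.2%). A change in the effect over time was therefore not called for any member tested. Each time point is a separate table, so time and table cannot be told apart in this term.

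The proteins of the particle were read in the same tables. At 72 h in RNA all 4 core genes had negative log2 fold changes, with a median of -0.40 against 0.02 over all genes. FBL, the methyltransferase, was at 50.2, 55.0 and 36.7 CPM with actD and 78.5, 101 and 65.0 CPM with DMSO, with no overlap, a log2 fold change of -0.79 (SE 0.25; edgeR adjusted p = 0.29). NOP58 footprints at 72 h were at 28.4, 35.3 and 71.4 CPM against 161, 131 and 87.1 CPM. On this TMM-normalised scale the groups did not overlap, with a log2 fold change of -1.50 (SE 0.46, edgeR adjusted p = 0.093). The 87.1 CPM came from DMSO replicate 3 (152556 counts, TMM factor 0.544), where 3 counts equal 37.3 CPM. Per total library counts the NOP58 groups overlapped. The other 2 core genes tested in those footprints, FBL and NOP56, each had a log2 fold change of 0.16, and the median of the 3 was 0.16 against 0.07 over all genes. At 6 h the core genes had a median of -0.04 in RNA. Among 13 assembly genes, 7 genes of the U3 particle and 6 genes of snoRNA trimming and decay, edgeR called 0 in any table. It called at most 0.00472% of all genes in an RNA table and at most 3.79% in a footprint table. In RNA at 72 h the medians of these lists, in that order, were -0.26, -0.20 and -0.55. There 9 of 13, 6 of 7 and 5 of 6 genes were lower, so lower values were not particular to the core genes. In RNA each of these genes was tested, but few were in footprints at 6 h, 72 h and 2 weeks. There 3, 5 and 4 assembly genes, 1, 3 and 1 U3 particle genes and 1, 1 and 0 trimming genes were tested.

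Members and their host genes were set side by side. The log2 fold changes in RNA at 6 h had an r of 0.04 and a rho of 0.04 over 57 members with a tested host. In RNA at 72 h r was -0.39 and rho -0.08 over 37, and at 2 weeks r was 0.75 and rho 0.46 over 37. In footprints at 6 h r was -0.38 and rho -0.34 over 13. Several members share a host, and these values are a description without a test.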

How the data were processed

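The authors deposited 6 gene count tables, 1 per assay and time point; the values are whole-number estimated counts per gene as deposited. Per the submitters' processing notes, HISAT2, StringTie and hg38 were used, with no roles or versions. The annotation, strand setting and handling of multi-mapping reads are not given in the sources used here. Small values in the 6 h and 2-week RNA tables pile up at regular steps, so no detection floor is given for them.

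Ids without version were matched to GENCODE release 29 (99.4% matched). Each table was fitted with edgeR 4.0.16 in R 4.3.3 on the deposited counts: filterByExpr, library sizes summed again over the kept genes, TMM, the quasi-likelihood test and Benjamini-Hochberg adjustment over all genes tested, called under 0.05. The library sizes were summed again after a first fit on full totals had been seen; both are reported. DESeq2 1.42.0 was an alternative, with library totals, protein-coding TMM, no filter, a replicate block, 1 fit over the 3 times, summed copies and each library left out. Shares and ratios were compared by exact two-sided permutation of 3 against 3. The fits were tested on simulated data. Samples were not treated as paired by replicate number, since in no table did every same-numbered pair correlate above 0.1. That rule cannot show that the samples were unpaired, and the labels do not say.

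The members, lists and box motifs were chosen with earlier results of these data known. Named members are those called, the 10 with the highest mean count per table, the U3, U14, U22 and SNHG1 sets, and the 3 largest increases and decreases per comparison among tested members with a mean count of at least 20 and groups that do not overlap. SNORD63, SNORD37 and SNORD14E changes at 6 h are named because DESeq2 called them. Figures were drawn with matplotlib 3.10.9 in Python 3.11.15. Some items are not reported here.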

Additional observations from a re-analysis of the deposited data

How the results depend on the processing

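edgeR called 0 members in all 6 comparisons and 3 time terms as reported, with library totals, with protein-coding TMM and without each library in turn. It also called 0 in the 6 comparisons with 1 fit over all times, and with 2 alternatives chosen after seeing the data: TMM on library totals before filtering, and near-identical copies summed. DESeq2 called 1 member in the 6 h RNA, 1 in the 2-week RNA and 4 in the 6 h footprints. Without a filter on low counts edgeR called 2 in footprints at 6 h and 9 in footprints at 72 h, or 6 lower and 0 higher there without actD replicate 3, a setting chosen after seeing the data. DESeq2 without that library gave a members' median of -2.40 and -2.09 for SNORD38B, and the fit without a filter gave -1.62 for SNORD38B. The replicate block called 0 members in every comparison, with a median log2 fold change of -0.43 in footprints at 72 h. In RNA at 72 h every sample correlated best with its own number, a hint from the data and not from the design.

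With library totals the members' median in footprints at 6 h was 0.066. Taking the 2-week RNA libraries by their titles gave a median of 0.21, a share difference of 0.0210 percentage points, a log2 box C/D to box H/ACA difference of -0.35, and -0.93 for SNORD15A, 0.54 for SNORD88B and -2.48 for SNORD97. With protein-coding counts as denominator the share difference was 0.0089 percentage points in the 72 h RNA and 4.62 in the 6 h footprints. With all counts it was -0.0088 and -0.0999, so both signs turned. In the 6 h footprints actD replicate 1 stood at 20.4% of protein-coding counts, against 3.60% to 7.82% in the other libraries.

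Without 1 library at a time, the members' median ran from -0.18 to 0.090 in RNA at 6 h, from 0.082 to 0.38 in RNA at 72 h from -2.09 to 2.33 in footprints at 72 h, from 0.33 to 1.28 in footprints at 6 h and from -1.64 to -0.21 in footprints at 2 weeks. The share difference (percentage points) ran from 0.0189 to 0.0412 in RNA at 6 h, from -0.0429 to 0.0373 in RNA at 72 h, from -0.0411 to 0.00011 in RNA at 2 weeks, from -0.0861 to 1.42 in footprints at 72 h and from -0.0233 to 0.0069 in footprints at 2 weeks. The log2 ratio difference ran from -2.05 to 1.02 in footprints at 72 h and from -0.97 to 0.067 at 2 weeks. It ran from -0.40 to -0.32 in RNA at 6 h. SNORD38B in footprints at 72 h ran from -2.04 to 5.01. SNORD17 in RNA at 6 h ran from 0.77 to 1.05, with adjusted p from 0.0079 to 1 over all alternatives. The cause of these changes was not tested. Footprint depth limits what can be seen: 49 of 74 members at 6 h, 70 at 72 h and 66 at 2 weeks fell under the filter.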

Other observations

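Outside the members, 5 SNORD genes reached a sum of 60 counts in a later table only. SNORD36A, in RPL7A like the member SNORD36B, had 869 counts over the 6 RNA libraries at 72 h, against 41 at 6 h and 16 at 2 weeks. SNORD118 (U8), which acts in processing of large-subunit ribosomal RNA, had 226 counts in RNA at 2 weeks, against 10 at 6 h and 7 at 72 h. SNORD8 had 95 at 2 weeks, SNORD4A had 89 at 72 h and 0 in both other RNA tables, and SNORD110 had 66 in footprints at 72 h. These genes were picked by their values, and no difference between groups is read from them.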
